A study of Mus musculus with 6 samples.

Results

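Klk6, the related kallikreins Klk7, Klk8, Klk9 and Klk10, and the protease-activated receptors F2r, F2rl1, F2rl2 and F2rl3 are described here in the hippocampus of mice 24 h after a traumatic brain injury (TBI). These 9 genes, of the 52550 in the count files, were taken by symbol. Klk6 was selected on its difference between sham and TBI in these same libraries, so its values are given as a description and without a test. The other 8 genes were added because their products are kallikreins present in brain or receptors that such proteases can cleave.

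Kallikreins are secreted serine proteases of the trypsin fold, made as inactive precursors. KLK6 (neurosin) is best known from oligodendrocytes, where it can cut myelin basic protein, and KLK8 (neuropsin) from hippocampal pyramidal neurons, where it acts on adhesion molecules and has been tied to synaptic plasticity. Protease-activated receptors are G protein-coupled receptors that carry their own ligand: a protease cuts the outer N-terminus, and the newly exposed end folds back and activates the receptor. PAR1 (F2r), PAR3 (F2rl2) and PAR4 (F2rl3) are known as thrombin receptors and PAR2 (F2rl1) as a receptor for trypsin-like enzymes.

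The libraries came from the hippocampus of male mice, labelled C57BL / 6 (C57B6/J in the methods) and aged 8 to 10 weeks, with 3 mice per group. Sham1 to Sham3 had anaesthesia, scalp incision and craniotomy without impact, and TBI1 to TBI3 had in addition a moderate controlled cortical impact over the right parietal bone. The study calls its tissue the whole hippocampus, and its methods add that the contralateral one was exposed too, without saying whether a library holds 1 side or both. RNA was bulk, and fewer cells of a type cannot be told apart from less RNA per cell. Totals ran from 31630936 to 41771872 counts per library, and 18795 genes passed the filter on low counts.

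Several libraries stood apart in marker genes of other regions and states. Genes of the striatum summed to 3880 CPM (counts scaled to a library of 1000000) in TBI1 against 138 to 200 CPM (199.5 at most) in the other 5 libraries. Genes of the cerebellum summed to 1122 CPM in TBI3 against 2.09 to 7.87 CPM elsewhere. In the library labelled Sham2, Gfap, the astrocyte filament gene, had 162684 counts, against 24262 and 25224 in the other sham libraries and 19251 to 60328 in TBI, and Serpina3n, another reactive astrocyte gene, had 19154 counts against 880 to 4174 in the other libraries. Summed mature oligodendrocyte genes were lowest in Sham2, at 3479 CPM against 9895 to 12210 CPM. Choroid plexus genes summed to 51.2 CPM in Sham2, 240.3 CPM in TBI1 and 258.5 CPM in TBI3 against 2017 to 2344 CPM in the other 3 libraries, and thalamic genes ran from 48.0 CPM in TBI1 to 455 CPM in TBI3. C1ql2, a dentate granule cell marker, had 100 counts in TBI1 and 1411 to 3483 elsewhere, and Neurod6, a marker of pyramidal neurons, had 1195 counts in TBI1 and 3015 to 10222 elsewhere. Not all markers of these cells were low in TBI1. Pdzd2 of the granule cell list had 4610 counts there and 1358 to 2580 elsewhere. Wfs1 of the pyramidal cell list had 11252 counts there and 2292 to 7037 elsewhere. Pou3f1 of the same list, at 77.2 CPM in TBI1, lay within the 35.9 to 99.7 CPM of the other libraries. The values of the members are therefore also given without single libraries where these move them.

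The coding stretches that define how these proteins work are shown first. They were read from GENCODE vM21 transcripts (GRCm38), and the reading frame was the longest one from a start codon. For the kallikreins the 42 bases surround the codon of the catalytic serine, found by the letters GDSGG in the translation. Capitals mark the serine codon and, before it, the codon 6 residues upstream, at the bottom of the pocket that holds the residue to be cut after. Each stretch spans the last splice junction, and so lies partly in the last exon and partly in the exon before it.

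Klk6: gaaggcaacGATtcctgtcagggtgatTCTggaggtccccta
Klk8: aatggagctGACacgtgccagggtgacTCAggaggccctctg
Klk7: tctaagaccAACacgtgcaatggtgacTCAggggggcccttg
Klk9: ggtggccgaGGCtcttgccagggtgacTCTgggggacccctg

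The pocket codon encodes aspartate in Klk6 (residue 198, with the serine at residue 204, chr7:43829253-43831509, plus strand) and in Klk8 (residue 206, serine at 212, chr7:43802193-43803634, plus strand). Aspartate there is the mark of trypsin-like enzymes, which cut after arginine or lysine. Klk7 has asparagine at this place (residue 195, serine at 201, chr7:43813346-43815317, plus strand) and is known as a chymotrypsin-like enzyme. Klk9 has glycine (residue 198, serine at 204, chr7:43795668-43796011, plus strand). The letters GDSGG were not in the translation of Klk10, which had 278 residues. The 5 translated kallikreins were 33.5% to 44.7% identical in pairs, and Klk6 was closest to Klk8 at 43.5%. The longest run of bases that the transcripts of any 2 of the 5 share was 18.

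For the receptors the 42 bases surround the 6 codons of the tethered ligand, in capitals, and the lower-case codon just before them encodes the residue after which the protease cuts.

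F2r: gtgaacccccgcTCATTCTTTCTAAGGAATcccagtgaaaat
F2rl1: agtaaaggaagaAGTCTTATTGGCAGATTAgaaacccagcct
F2rl2: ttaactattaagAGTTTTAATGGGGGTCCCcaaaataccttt
F2rl3: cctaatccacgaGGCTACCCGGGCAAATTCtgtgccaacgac

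Arginine precedes the ligand in F2r (ligand from residue 42, chr13:95604873-95604914, minus strand), F2rl1 (from residue 39, chr13:95514229-95514270, minus strand) and F2rl3 (from residue 60, chr8:72762312-72762353, plus strand), and lysine precedes it in F2rl2 (from residue 38, chr13:95700548-95700589, plus strand). All 4 stretches lie in exon 2 of 2. The residues before the ligand are those after which trypsin-like enzymes cut. The receptors' translations were 27.8% to 32.0% identical in pairs.

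Klk6 (ENSMUSG00000050063.18, chromosome 7 of GRCm38, 43824499 to 43832030, plus strand, 4 transcripts) had 197, 214 and 169 counts across Sham1 to Sham3 and 1254, 398 and 833 across TBI1 to TBI3. As CPM these were 4.86, 5.33 and 4.40 in sham against 30.7, 12.6 and 23.4 in TBI. The sham libraries lay close together, every TBI library was above all of them, and TBI1 was the highest. The mean was 4.87 ± 0.466 CPM in sham and 22.2 ± 9.13 CPM after TBI (SD, n = 3 mice each), a log2 fold change of 2.19 (SE 0.339). The TBI library with least Klk6 had 2.36 times the CPM of the sham library with most. In 4.77% of the 18795 genes tested every TBI library was above every sham library, and nothing is read from Klk6 being among them. Likewise DESeq2 with its defaults called 0.13% of its tested genes higher in TBI, Klk6 among them, and that call is what brought Klk6 into this description.

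The difference in Klk6 was present in TBI2, where striatal genes summed to 156 CPM and cerebellar genes to 7.87 CPM, close to the sham ranges of 138 to 149 CPM and 2.09 to 6.69 CPM. With TBI1 and TBI3 left out, the log2 fold change of TBI2 over the sham libraries was 1.37 (SE 0.280, with TBI2 assumed to vary like the sham libraries), so the size of the change was smaller without them. It was 1.89 without TBI1, 2.15 without TBI3, 2.47 without TBI2 and 2.26 without Sham2. The part of striatal and cerebellar tissue in the level of Klk6 in TBI1 and TBI3 was not tested.

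**Figure D1:**
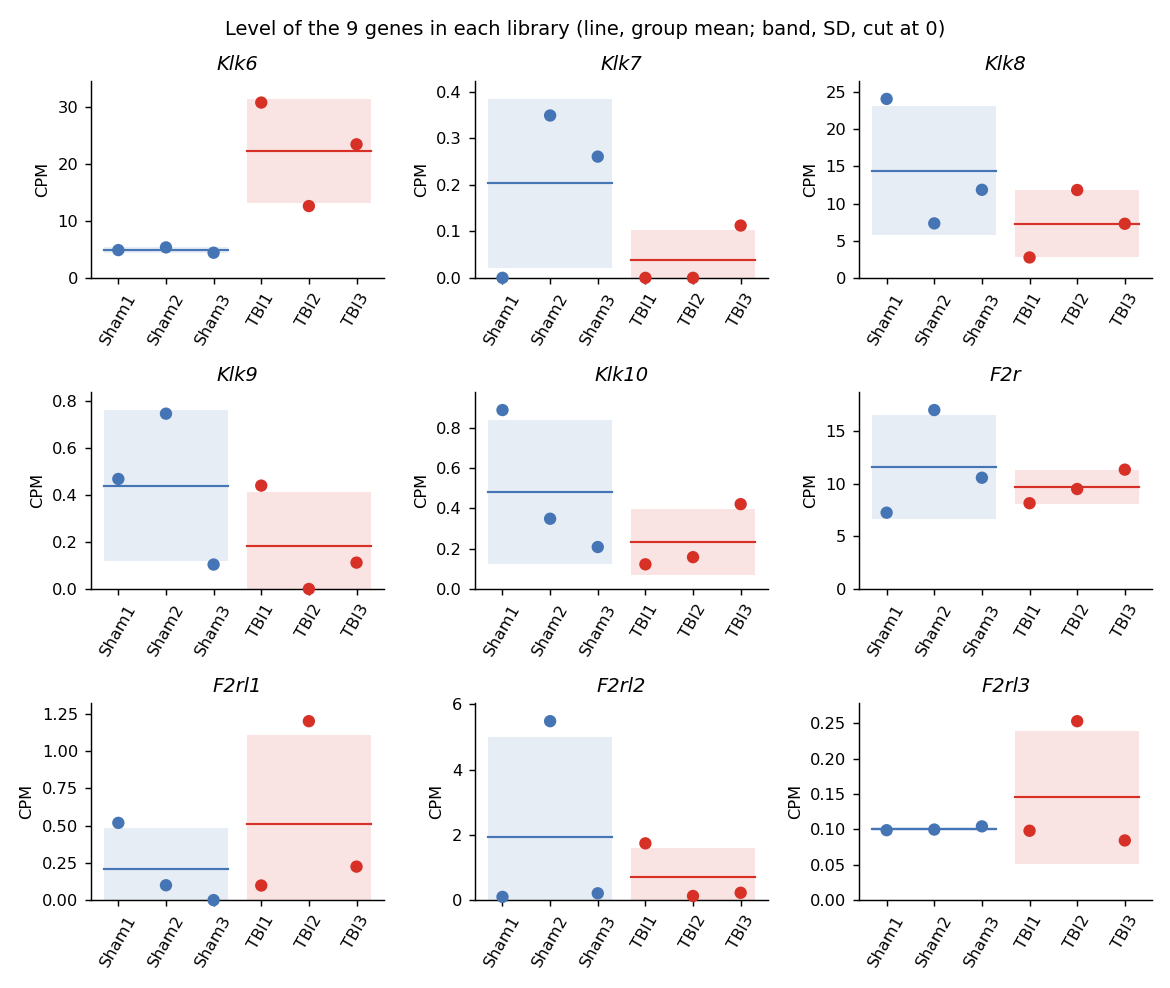
CPM of each of the 9 genes in the 6 libraries (blue, Sham1 to Sham3; red, TBI1 to TBI3; lines, group means; bands, SD with n = 3, drawn no lower than 0), with a linear axis of its own for each gene. Klk6 is the only panel of the 9 in which all TBI points lie above all sham points, from 12.6 CPM in TBI2 to 30.7 CPM in TBI1 against at most 5.33 CPM in sham.

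Klk6 was then set beside gene lists of cell types and regions. Over the 6 libraries, which share the group difference and the tissue differences above, the correlation of Klk6 was -0.931 with the pyramidal cell list, 0.843 with the interneuron list, 0.699 with the striatal list, -0.689 with the granule cell list, 0.594 with the endothelial list, 0.572 with the microglial list, -0.526 with the meningeal fibroblast list, 0.461 with the cerebellar list and 0.421 with the mature oligodendrocyte list. Of the 11 microglial genes 11 were higher in TBI and edgeR called 0, and without TBI1 6 were higher and 5 lower. The part of these tissue differences in the level of Klk6 was not tested. Oligodendrocytes are the cells best known to make KLK6, and their genes are given in more detail. The list of 15 mature oligodendrocyte genes leaves out Klk6. Of these 15 genes 14 were higher and 1 lower in TBI. Their log2 fold changes had a median of 0.34, against 0.0091 over all genes tested, and edgeR called 0 of the 15. The list's direction rested on Sham2: without that library 6 were higher and 9 lower, with a median of -0.046. The mean log2 level of the list relative to sham was 0.72, -1.12 and 0.40 across Sham1 to Sham3 and 0.69, 0.45 and 0.63 across TBI1 to TBI3, so that Sham1 was above every TBI library. Klk6 was at 0.0036, 0.14 and -0.14 in the sham libraries. The part of oligodendrocyte content in the level of Klk6 was not tested.

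As a description of the selected gene, Klk6 is also given relative to that list. Klk6 minus the list's mean was -0.71, 1.25 and -0.54 across Sham1 to Sham3 and 1.96, 0.91 and 1.62 across TBI1 to TBI3 on the log2 scale, and Sham2, where the list was low, lay above TBI2. The same order held against Mbp, the gene of myelin basic protein: per 1000 Mbp counts there were 2.08, 7.67 and 2.59 Klk6 counts in sham and 12.2, 6.17 and 10.9 in TBI. Sham1 and Sham3 were below all TBI libraries on both of these scales, and Sham2 was above TBI2 on both.

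**Figure D2:**
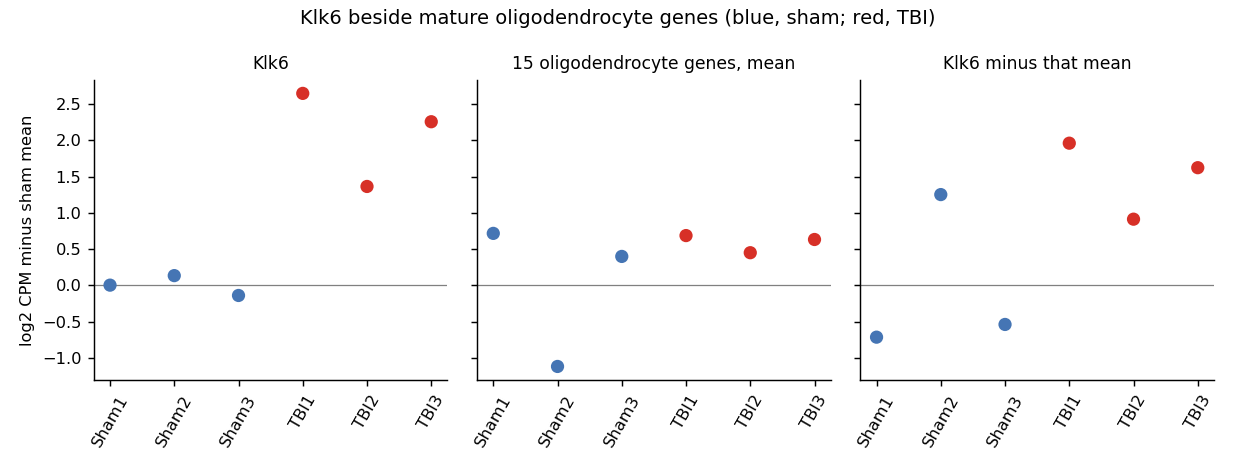
Level on the log2 CPM scale, relative to the sham mean, for Klk6 (left), the mean of 15 mature oligodendrocyte genes (middle) and the difference of both, centred on sham (right), in each library. Sham2 is lowest in the middle panel at -1.12, and in the right panel it stands at 1.25, above TBI2 at 0.91.

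Genes that vary between oligodendrocyte subsets, a list of 8 that includes Hopx, Il33 and Ptgds, were higher in TBI for 6 genes and lower for 2, at a median of 0.26 on the log2 scale, and edgeR called 0 of them. Klk6 minus the mean of this list was -0.15, 0.45 and -0.30 in sham and 2.66, 0.99 and 1.69 in TBI, and here the groups did not overlap. Genes of oligodendrocyte precursors, 9 in the list, split into 5 higher and 4 lower, at a median of 0.096 that was -0.20 without Sham2. Klk6 minus their mean was -0.31, 0.60 and -0.29 in sham and 2.39, 1.23 and 2.28 in TBI, again without overlap. The mean level of Sham2 was -0.32 in the subset list and -0.46 in the precursor list, against -1.12 in the mature list, and nothing is read from the overlap with 1 list and not with the others.

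The 5 genes outside the 9 whose log2 CPM followed Klk6 most closely over the 6 libraries were Cd300c2 (Pearson's r 0.993), Gm6658 (0.992), Amhr2 (0.985), Adssl1 (0.983) and Hlcs (0.976). These values describe 6 libraries that share the group difference, and are no test. Cd300c2, which encodes a myeloid cell surface receptor, had 117, 115 and 100 counts in sham and 229, 128 and 166 in TBI. Hlcs, the biotin ligase of carboxylases, had 471, 427 and 414 counts in sham and 841, 431 and 703 in TBI. In all 5 the TBI libraries were ordered as for Klk6, with TBI1 highest and TBI2 lowest in CPM, and their log2 fold changes ran from 0.39 to 1.76.

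Klk8 (ENSMUSG00000064023.4, chromosome 7, 43797577 to 43803826, plus strand, 3 transcripts) was the kallikrein with the highest level in each sham library. It had 975, 294 and 455 counts across Sham1 to Sham3 and 112, 374 and 259 across TBI1 to TBI3, or 24.1, 7.33 and 11.9 CPM and 2.74, 11.8 and 7.28 CPM. Sham1 was high and TBI1 low, and the other 4 libraries of both groups overlapped. The mean was 14.4 ± 8.66 CPM in sham and 7.28 ± 4.54 CPM after TBI (SD, n = 3 each), and the log2 fold change of -0.99 (SE 0.619) did not pass the test (edgeR's quasi-likelihood test, Benjamini-Hochberg adjusted p = 0.982). It was -0.40 without Sham1 and -0.60 without TBI1, and -1.31 without Sham2 and -1.54 without TBI2.

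Klk8 was then set beside neuronal gene lists. The mean log2 level of the pyramidal cell list relative to sham was 0.25, -0.20 and -0.048 in sham and -1.39, -0.24 and -1.02 in TBI, and that of the granule cell list was 0.68, -0.69 and 0.0073 in sham and -2.68, -0.19 and -0.30 in TBI. Over the 6 libraries the correlation of Klk8 was 0.899 with the former and 0.957 with the latter, in libraries that share the same tissue differences, and it was -0.796 with the interneuron list and -0.851 with the striatal list. Per 1000 counts of Neurod6 there were 95.4, 55.7 and 65.2 Klk8 counts in sham and 93.7, 82.9 and 85.9 in TBI, where TBI1 lay within the sham range. Against the whole pyramidal cell list TBI1 was the lowest library: Klk8 minus the mean of that list was 0.66, -0.60 and -0.062 in sham and -0.81, 0.13 and 0.21 in TBI on the log2 scale. The part of less hippocampal neuronal RNA in the Klk8 level of TBI1 was not tested further.

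The Klk8 counts carry 1 more limit. The gene 2310002F09Rik lies on the opposite strand and covers 382 of the 1540 exonic bases of Klk8 (24.8%). Whether the libraries keep strand is not given in the sources used here, and without strand the reads of both genes cannot be told apart on those bases. Its counts were 403, 117 and 174 in sham and 8, 111 and 116 in TBI, in an order like that of Klk8. No other member shared an exonic base with another annotated gene.

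The make-up of the kallikrein counts differed between libraries. Klk6 held 15.8%, 32.8% and 25.8% of all kallikrein counts across Sham1 to Sham3 and 90.3%, 50.2% and 73.4% across TBI1 to TBI3. Klk8 held 78.1%, 45.1% and 69.4% in sham and 8.06%, 47.2% and 22.8% in TBI. Klk6 counts were 0.202 to 0.728 times those of Klk8 in sham and 1.06 to 11.2 times in TBI, so TBI2 was the library with nearly equal counts of both. These shares rest on the Klk6 counts by which the gene was chosen.

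**Figure D3:**
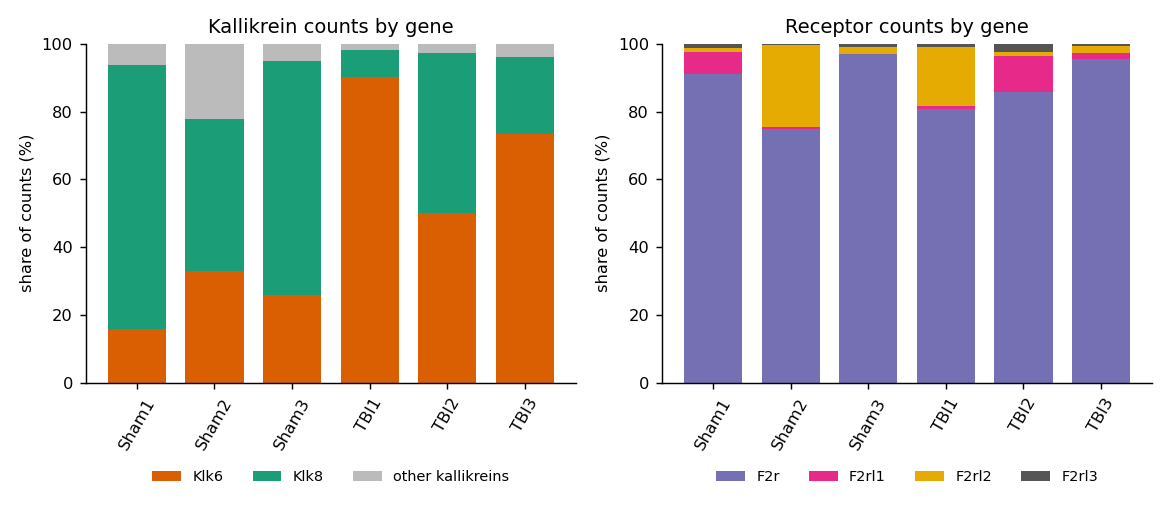
Share of all kallikrein counts held by Klk6, Klk8 and the remaining kallikrein genes (left), and share of the counts of the 4 receptors held by each (right), in percent per library. Klk6 takes 15.8% to 32.8% in sham and 50.2% to 90.3% in TBI, while F2r takes 74.9% or more of the receptor counts in each library.

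The remaining kallikreins were near the limit of detection. Klk9 had 19, 30 and 4 counts in sham against 18, 0 and 4 in TBI. Klk10, whose product is found mainly in epithelia, had 36, 14 and 8 counts in sham and 5, 5 and 15 in TBI. Klk7, a protease of the shedding skin, had 0, 14 and 10 counts in sham against 0, 0 and 4 in TBI. The groups overlapped in each of these genes.

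Klk9 and Klk10 passed the filter, and their log2 fold changes were -1.21 (SE 1.22) and -1.04 (SE 0.793), neither past the edgeR test (adjusted p = 0.982 for each). For Klk9 the value was -2.86 without TBI1, -0.66 without TBI2 and -0.60 without Sham2, and for Klk10 it was -0.25 without Sham1 and -1.77 without TBI3. What size of difference these low counts and 3 mice per group could show was not tested, and Klk7 did not pass the filter. The value 4 occurs 5109 times in the count files and the value 3 occurs 2325 times, so a small count is not a tally of reads and can stand for very few fragments.

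Of the other 21 protein-coding kallikrein genes 13 were at 0 in all 6 libraries and 8 had any count, 24 being the highest, of Klk1b26 in Sham2. None of the 21 passed the filter. Klk5, the neighbour of Klk6 on one side of the cluster, was at 0 in each library, and Klk11, the neighbour of Klk10 at the other end, had at most 7 counts. Klk6 and Klk8 were thus flanked by genes at 0 or with few counts, with Klk7 between them at 14 counts or fewer. The Klk1b genes are close copies of each other, and the assignment of their few reads is uncertain.

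F2r (ENSMUSG00000048376.6, chromosome 13, 95601803 to 95618487, minus strand) was the receptor with the highest level, with 74.9% to 97.1% of the counts of the 4 receptors. It had 293, 681 and 405 counts across Sham1 to Sham3 and 332, 300 and 403 across TBI1 to TBI3, or 7.24, 17.0 and 10.6 CPM and 8.13, 9.48 and 11.3 CPM. Sham2 was the highest library, and the TBI libraries lay within the sham range. The mean was 11.6 ± 4.95 CPM in sham and 9.65 ± 1.60 CPM after TBI (SD, n = 3 each), with a log2 fold change of -0.26 (SE 0.333, adjusted p = 0.982 by edgeR). Without Sham2 the sign was the opposite, with 0.12 (SE 0.261). Over the 6 libraries the correlation of F2r was -0.971 with the list of oligodendrocyte precursors and -0.881 with that of mature oligodendrocytes, both lowest in Sham2.

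F2rl2, the gene of PAR3, had 4, 220 and 8 counts in sham and 71, 4 and 8 in TBI. It was high in Sham2 and, to a lesser degree, in TBI1, and had at most 8 counts in the other 4 libraries. In Sham2 it made up 24.2% of the receptor counts and in TBI1 17.3%. It did not pass the filter, and no fold change is given. Iqgap2 on the opposite strand spans F2rl2 but shares no exonic base with it, and its counts were 2236 in Sham2 and 905 in TBI1, below the 4163 of Sham1.

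F2rl1, the gene of PAR2, had 21, 4 and 0 counts in sham and 4, 38 and 8 in TBI, with the highest value in TBI2. F2rl3, the gene of PAR4, known from mouse platelets, had 4 counts in each sham library and 4, 8 and 3 in TBI. Neither passed the filter, and the groups overlapped in both. TBI2 was also the library with the highest summed red blood cell genes, at 601 CPM against 117 to 416 CPM in the others, and the part of blood in its F2rl1 and F2rl3 counts was not tested.

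Of the 9 members 5 passed the filter, namely Klk6, Klk8, Klk9, Klk10 and F2r. Of all genes tested 0% met the edgeR rule for a call, that is a fold change of over 1.5 in either direction with p under 0.05 before and under 0.1 after adjustment. None of the 4 members other than Klk6 met it. An unadjusted p under 0.05 was met by 4.29% of all genes tested and by 0 of the 4 members other than Klk6. In 5.45% of the genes tested every TBI library was below every sham library, and 0 of the 4 members other than Klk6 showed this.

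**Figure D4:**
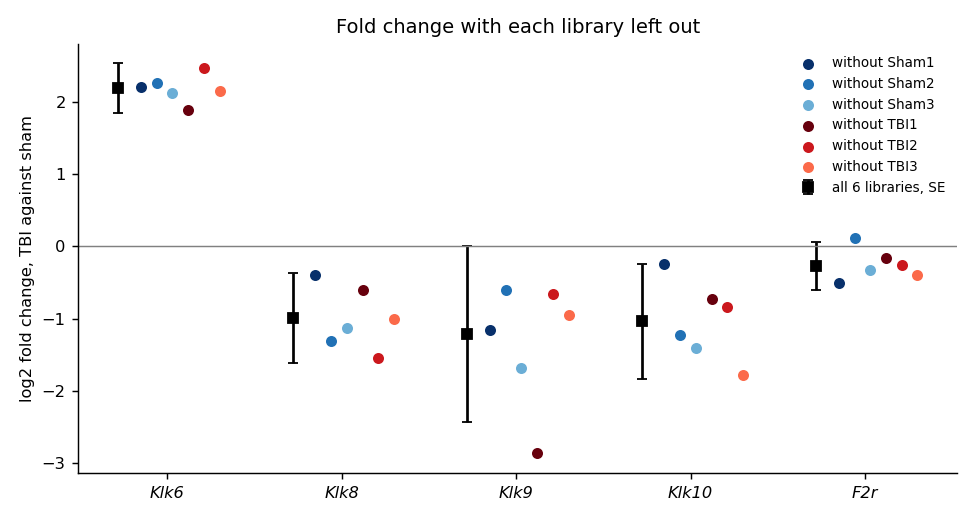
Log2 fold change of TBI against sham for the 5 members that passed the filter, with all 6 libraries (black square, bar SE) and with each library left out (coloured points). Klk6 stays between 1.89 and 2.47, Klk8, Klk9 and Klk10 stay below 0 with wide ranges, and F2r turns to 0.12 without Sham2.

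Levels of different genes are compared per kilobase of exon (CPM per kb). In sham the order of the means was Klk8 at 9.36, F2r at 3.47, Klk6 at 3.22, F2rl2 at 0.771, Klk10 at 0.351, Klk9 at 0.298, Klk7 at 0.107, F2rl1 at 0.0752 and F2rl3 at 0.0506 CPM per kb. The libraries of neighbours in this order overlapped, except that Klk6 with 2.91 to 3.53 CPM per kb was above F2rl2 in each library, where Sham2 gave the highest value of 2.19. The place of F2rl2 rested on Sham2, with 5.48 CPM there against 0.0988 CPM in Sham1 and 0.208 CPM in Sham3. In TBI the order began with Klk6 at 14.7, Klk8 at 4.73 and F2r at 2.89 CPM per kb. There the lowest Klk6 library, 8.31 CPM per kb, was above the highest Klk8 library, 7.68, and F2r and Klk8 overlapped. The other 6 genes were at 0.695 CPM per kb or less in each TBI library.

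The proteases that cleave these receptors outside the kallikrein family mostly had too few counts to be tested. Of 22 listed genes 4 were at 0 throughout and 5 passed the filter, 3 of them higher and 2 lower in TBI. Their median was 0.30 on the log2 scale, with 0 at an unadjusted p under 0.05. Without Sham1, Sham2, Sham3 or TBI1, 7 genes were tested, since Klkb1 and Tpsb2, at 20 counts or fewer per library, then passed the filter. The medians were 0.41, 0.61, 0.54 and 0.38 in that order. They belong to a changed set of genes, so nothing is read from their distance to 0.30. F2, the gene of prothrombin, had 8 counts in Sham2, 9 in TBI3 and 0 in the other libraries. Ctss, the lysosomal protease cathepsin S of microglia, was the most abundant, with 92.7 ± 8.60 CPM in sham and 114 ± 24.8 CPM after TBI (SD, n = 3 each). Its log2 fold change was 0.30 (SE 0.177, adjusted p = 0.982 from the edgeR test), and 0.11 without TBI1, the library with the highest microglial sum of 1052 CPM against 513 to 719 CPM in the others.

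The next in abundance among these proteases were Plau, Mmp9 and Prtn3. Plau, the urokinase gene, had 2.21 ± 0.526 CPM in sham and 2.09 ± 0.735 CPM in TBI. Mmp9, a matrix metalloprotease gene, had 2.32 ± 0.395 CPM in sham and 1.42 ± 1.06 CPM in TBI, with the lowest value in TBI1, and its log2 fold change of -0.71 was -0.31 without that library and -1.48 without TBI2. Prtn3, the proteinase 3 gene, had 1.42 ± 0.212 CPM in sham and 2.03 ± 0.336 CPM in TBI without overlap, a log2 fold change of 0.52 (SE 0.312, adjusted p = 0.982 from the edgeR test).

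Cofactors and receptors of these proteases, listed together with the protease gene Plat, had their highest level in Sham2 in 5 of 5 genes. F3, tissue factor, which starts coagulation, had 49.7, 85.1 and 55.4 CPM in sham and 50.3, 59.0 and 74.4 CPM in TBI. Plat, the gene of tissue plasminogen activator, had 30.8, 132.6 and 35.7 CPM in sham and 46.3, 37.0 and 34.1 CPM in TBI. Plaur, the urokinase receptor gene, had 0.864, 11.5 and 0.860 CPM in sham and 3.45, 2.31 and 1.12 CPM in TBI. Thbd, the gene of thrombomodulin, which turns thrombin away from its receptors, had 419, 1508 and 703 counts in sham and 427, 696 and 349 in TBI. All 5 were lower in TBI (median -0.65 on the log2 scale), none past the edgeR test, and without Sham2 4 of 5 were higher with a median of 0.24, so the direction of this list was that of 1 library. The high F2r and F2rl2 counts of Sham2 stood beside these values.

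Of 15 serine protease inhibitors 12 passed the filter, 3 higher and 9 lower in TBI. Their median log2 fold change was -0.14, and 0.044 without Sham2, where 6 were higher and 6 lower. Serpine2, protease nexin 1, an inhibitor of thrombin made by glia, had 177, 148.4 and 197 CPM in sham and 247, 202 and 225 CPM in TBI. Every TBI library was above every sham library, with a log2 fold change of 0.37 (SE 0.144), an unadjusted p under 0.05 and an adjusted p of 0.982 by edgeR. The log2 fold change was 0.27 without Sham2 and 0.215 with TBI1 and TBI3 left out. Serpini1, the neuronal inhibitor neuroserpin, had 252 ± 36.4 CPM in sham and 229 ± 88.0 CPM after TBI (SD, n = 3 each). Serpinb6a, an intracellular inhibitor, had 31.9 ± 3.02 CPM in sham and 29.0 ± 2.72 CPM after TBI. Serpina3n had 46.9, 477 and 39.3 CPM in sham and 102, 77.1 and 24.7 CPM in TBI. It was highest in Sham2, and its log2 fold change of -1.47 was 0.66 without that library.

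The signalling genes downstream of the receptors were all expressed. Of 20 tested 8 were higher and 12 lower in TBI (median -0.044), and edgeR called 0. Without TBI3 11 were higher and 9 lower, at a median of 0.028. Gnaq, the G protein subunit through which PAR1 raises calcium, had 316, 273 and 272 CPM in sham and 191, 259 and 243 CPM in TBI, each TBI library below each sham library, and a log2 fold change of -0.31 (SE 0.148, adjusted p = 0.982 by edgeR), or -0.19 without TBI1. Prkca, a protein kinase C gene, had 248 ± 46.4 CPM in sham and 160 ± 41.1 CPM after TBI (SD, n = 3 each), with a log2 fold change of -0.63 (SE 0.222), an unadjusted p under 0.05 and an adjusted p of 0.982 by edgeR, and -0.27 with TBI1 and TBI3 left out. Arhgef12, an exchange factor for small GTPases, Rock2, a serine/threonine kinase, and Gnai1, an inhibitory G protein subunit, had log2 fold changes of -0.037, -0.15 and -0.11. Arhgef12 was at 0.032 without TBI3 and Gnai1 at 0.016 without TBI1, on the other side of 0. In Rock2 each TBI library was below each sham library, and in Gnai2 each was above (log2 fold change 0.17, SE 0.0926). Of the 20 genes 2 were below and 1 above in this way, against 5.45% and 4.77% of all genes tested. Nothing is read from these counts.

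Of 7 genes whose products are described as substrates of KLK6 or KLK8, 4 were higher and 3 lower in TBI, with 0 called. Mbp had 2334, 696 and 1702 CPM in sham and 2518, 2040 and 2139 CPM in TBI, with a log2 fold change of 0.50 (SE 0.401) that was 0.14 without Sham2 and 0.90 without Sham1. Nrg1, the neuregulin 1 gene, had 5.28, 5.21 and 3.54 CPM in sham and 7.99, 5.88 and 8.23 CPM in TBI, without overlap (log2 fold change 0.65, SE 0.262, unadjusted p under 0.05, adjusted p = 0.982 by edgeR), and 0.33 with TBI1 and TBI3 left out. App, the amyloid precursor gene, had 1539 ± 48.3 and 1565 ± 81.3 CPM, and L1cam, a neuronal adhesion gene, had 64.7 ± 18.8 and 79.3 ± 1.33 CPM in sham and TBI (SD, n = 3 each). L1cam had a log2 fold change of 0.29, and of 0.55 without Sham3 and 0.15 without Sham2.

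**Figure D5:**
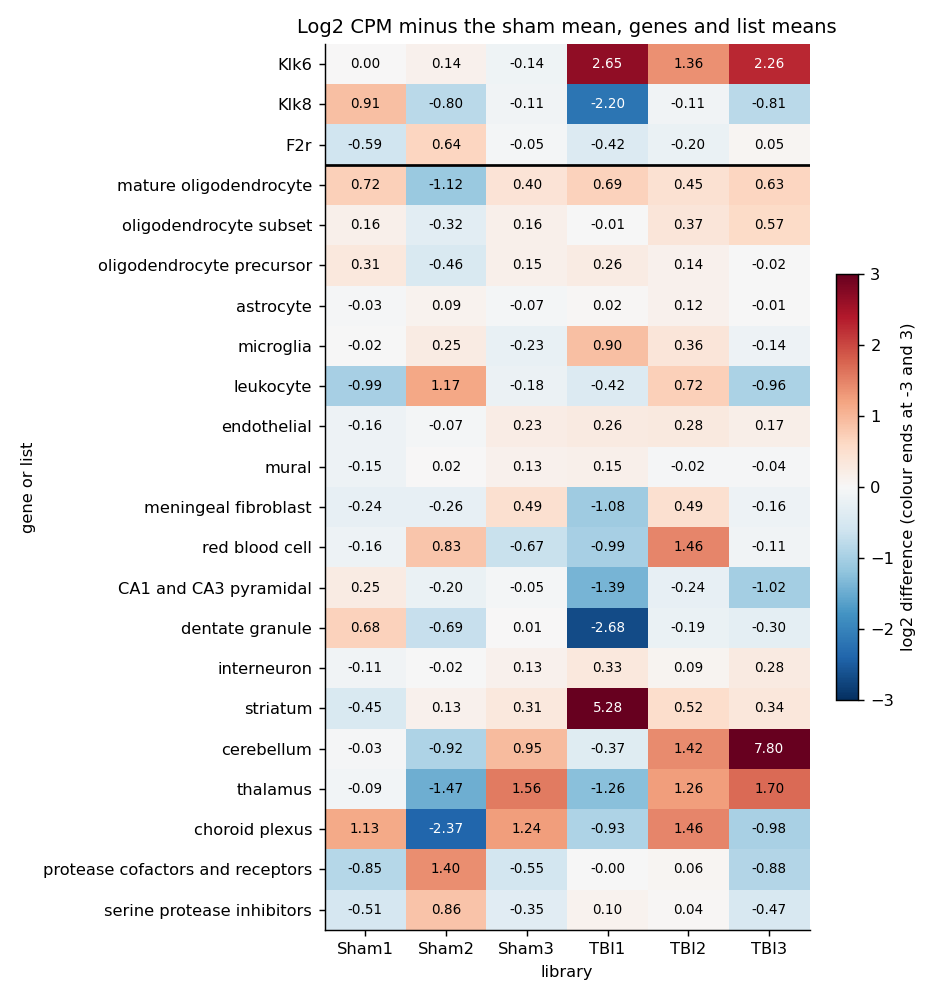
Level relative to the sham mean, in log2 CPM, for Klk6, Klk8 and F2r (above the line) and for the means of the marker lists and 2 pathway lists (below), in each library, with the value printed in each cell. TBI1 stands at 5.28 in striatal genes, TBI3 at 7.80 in cerebellar genes and Sham2 at -1.12 in mature oligodendrocyte genes, and Klk6 is above every sham value in all 3 TBI columns.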

How the data were processed

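Hippocampal RNA of 3 sham and 3 TBI mice was sequenced. According to the methods, FastQC, HISAT2 (reference GRCm38) and StringTie were used by the authors. What they deposited per gene is an estimated count, given as a whole number and not normalized. The versions of these tools, the annotation release, strandedness and the step to counts are not given in the sources used here. Of 52550 genes 52403 matched a symbol in GENCODE vM21.

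Genes were filtered with filterByExpr (minimum count 10), scaled by TMM and compared with edgeR 4.0.16 (R 4.3.3), by the quasi-likelihood test with Benjamini-Hochberg adjustment over 18795 genes, and DESeq2 1.42.0 was an alternative. Lists were described by counts and medians, and their value in 1 library is the mean of log2 CPM (prior count 2) minus the sham mean. Scripts were tested on simulated data. Exonic length is the union of annotated exons, and translations were made with Biopython 1.88.

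The named genes were the members, other kallikreins that passed the filter, the 4 most abundant genes of each pathway list with those at an unadjusted p under 0.05, the 5 genes most like Klk6, and neighbours of the members on the chromosome. Gfap, C1ql2, Neurod6, Pdzd2, Wfs1, Pou3f1, F2, Klkb1, Tpsb2, Gnai2, Klk1b26 and genes that overlap a member were named after their values were seen. Some genes that the rule names are not reported here. The members and lists were chosen with earlier results of these data known.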

Additional observations from a re-analysis of the deposited data

How the results depend on the processing

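edgeR called 0 genes (806 at an unadjusted p under 0.05). DESeq2 called 46 genes with its defaults and 50 on the genes kept by filterByExpr. With each library left out in turn edgeR called 0 to 1 genes, the 1 being Zfp664 without TBI1 (named after its values were seen). Chosen after seeing the data, leaving out TBI1 and TBI3 gave 1 gene, Gm20431 (also named after its values were seen), and leaving out Sham2, TBI1 and TBI3 gave 11. In that last setting Klk6 had a log2 fold change of 1.43 and F2r one of 0.088, against its sign with all libraries. With each library left out, F2r ran from -0.51 without Sham1 to 0.12 without Sham2, where it was reversed. The other scalings, filters, counts divided by 4, robust dispersions and thresholds left the edgeR count at 0.

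Of the 5 members tested, 1 did not overlap between groups. With each library left out this was 1 to 2, and it was 3 without TBI1 and TBI3 and 4 without Sham2, TBI1 and TBI3. Fewer libraries overlap less often by construction. Of all genes tested 10.2% did not overlap with every library in, 17.5% to 22.8% with 1 left out, and 43.6% and 66.8% in the last settings, so nothing is read from these counts. There TBI has a single library, assumed in the fit to vary like the sham libraries.

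The replicate numbers were shared between groups, but the deviations of same-numbered libraries correlated at -0.0996, -0.065 and 0.153, so the numbers pair nothing that the labels name. With the replicate block edgeR called 0 genes, and only the libraries numbered 3 correlated best with their own number. The block gave log2 fold changes of 2.11 for Klk6, -0.995 for Klk8 and -0.19 for F2r.

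Nothing in the labels beyond separate animals describes batches. Values of 4 and 8 are more frequent than 3 and 7, so counts of Klk7, F2rl1 and F2rl3 set no usable interval, and 3 mice per group limit the precision.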
